A study of Mus musculus with 9 samples.

Results

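The cells described here were the reporter-positive tumour cells of Kmt2c knockout (Kmt2c KO) and wild-type (WT) mammary tumours. They were chosen as cell barcodes in which over 500 but fewer than 7500 genes were detected, with under 15% mitochondrial transcripts and at least 1 transcript of H2BMc, the reporter gene that the injected tumour line carried. This rule found 10011 cells, 8277 in 3 Kmt2c KO libraries and 1734 in 3 WT libraries, of 31084 cells that passed the same filters in those libraries and 58645 in all 9 libraries of the series, which held 89147 barcodes. Each library was an unsorted cell suspension, depleted of dead cells and debris on a Percoll gradient, of a primary tumour grown from 168FARN, a mouse mammary tumour cell line, injected into the mammary fat pad of young female BALB/c mice and its cells were read one by one by 5′ RNA sequencing in droplets. All groups shared the line, the host strain, the injection site and the H2B–mCherry reporter. The Kmt2c KO cells had in addition been transfected with a pool of guide RNAs against the first exon of Kmt2c together with Cas9, and the third genotype of the series, Kmt2d KO, with guides against Kmt2d. The knockout was made once in a pool of cells, so that the 3 Kmt2c KO tumours replicated the mouse and not the editing. The comparison asked which genes, beyond those of the interferon response, were higher or lower in tumour cells that had lost Kmt2c.

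Kmt2c encodes a large histone H3 lysine 4 methyltransferase. It works in a COMPASS-like complex with shared core subunits such as Wdr5, Ash2l, Rbbp5 and Dpy30 and with the H3K27 demethylase Kdm6a, and it is known for placing the monomethyl mark at enhancers, the distal elements that set how strongly a gene is read in a given cell type. Its close relative Kmt2d has overlapping roles, and both genes are often mutated in breast cancer.

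The guides are shown because they define the knockout. Each was 20 bases long, matched chromosome 5 once in the NCBIM37 genome, and lay next to the NGG motif that Cas9 needs. All 3 fell in the first exon (25004208–25004601) of the gene that this annotation calls Mll3, the older name of Kmt2c, which spans 24777612–25004601 on the minus strand. NCBIM37 is an earlier build than the mm10 build of the count files, and these coordinates were not used with the counts. Guide sg1 matched the plus strand at 25004241–25004260, sg2 the minus strand at 25004359–25004378 and sg3 the plus strand at 25004229–25004248. The capitals in sg1 and sg3 mark the 8 bases in which the 2 guides overlap, and those in sg2 mark the annotated start codon.
sg1: TCTTTGCGaggccggccccg
sg2: ggtgactaggATGtcgtcgg
sg3: ggggaagcgccaTCTTTGCG
Guides sg1 and sg3 lay wholly in the coding part of the exon. Cuts of this kind leave small insertions and deletions, so that the transcript can still be made and counted, and the number of Kmt2c transcripts does not check the labels.

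Kmt2c KO libraries held more cells, and WT libraries more transcripts per cell. The filters kept 6024 to 11813 cells per Kmt2c KO library and 939 to 2380 per WT library, and the H2BMc-positive cells gave 30061482 to 34057388 unique molecular identifiers (UMIs, counted transcripts) per Kmt2c KO library and 9779795 to 14411326 per WT library. Their median was 8661 to 11824 UMIs per cell in Kmt2c KO and 13729 to 24081 in WT. H2BMc-positive cells made up 32.0% ± 4.55 (SD, n = 3) of the kept cells in Kmt2c KO and 38.4% ± 0.534 in WT, which differed with a two-sided exact permutation p of 0.1, the smallest that 3 against 3 libraries allow (0.114 after Benjamini-Hochberg adjustment over 8 such facts). The difference depended on the filters and the depth. With a mitochondrial limit of 25% the groups overlapped (27.4%, 28.1% and 34.4% against 32.4%, 36.4% and 31.8%), and with every kept cell thinned to 2000 UMIs, which left 5576 to 10717 cells per Kmt2c KO and 836 to 2243 per WT library, the direction turned (10.8%, 10.04% and 12.1% against 7.5%, 10.4% and 7.53%, exact permutation p = 0.2). The mitochondrial limit removed 7.78% to 9.96% of the barcodes per Kmt2c KO library and 11.6% to 33.8% per WT library. The second marker of these cells, Krt8, a keratin of simple epithelium, was seen in 74.0% to 75.9% of the Kmt2c KO and 92.6% to 95.3% of the WT H2BMc-positive cells. These Krt8 shares were read without thinning, so that the greater depth of WT cells enters them. Among cells with at least 3 UMIs of leukocyte genes and none of Krt8, 12 of 584 in Kmt2c KO (2.05%, median 1999.5 UMIs) and 1 of 203 in WT (0.493%, median 2869 UMIs) held H2BMc, with medians of 10032 and 16878.5 UMIs in all H2BMc-positive cells. Genes that define normal mammary epithelium were at or near 0: none of 9 was high enough to test, and Epcam and Csn2 had no UMI in any of the 6 libraries. In all, 63 barcode sequences occurred in more than 1 of the 6 libraries, in 127 cells. One library of the third genotype stood apart from its label group: over 9780 genes, the library numbered Kmt2d KO 2 differed from the Kmt2c KO libraries by a root mean square log2 of 0.212 to 0.305, but from the other Kmt2d KO libraries by 0.355 to 0.359, whereas the latter differed from each other by 0.158. It took no part in the comparison of Kmt2c KO with WT, and Kmt2d KO values are given beside a result with that library named.

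The transcript of the targeted gene did not pass the test, and genes on the list of its complex family were called in both directions. Kmt2c was at 43.9, 42.0 and 57.6 CPM (a counts-per-million level, relative to all UMIs of the H2BMc-positive cells of a library) in the Kmt2c KO libraries and at 48.1, 49.1 and 48.1 CPM in WT, and these groups overlapped (log2 fold change -0.02 ± 0.10 (SE), edgeR adjusted p = 0.890). Among cells without a Ly6a UMI, a gene of the interferon group seen in 76.0% to 87.9% of Kmt2c KO and 26.9% to 28.0% of WT cells, Kmt2c was lower by a log2 of -0.36 (adjusted p = 0.0139). Kmt2d was at 26.3, 21.8 and 31.1 CPM in Kmt2c KO and 21.4, 19.0 and 14.9 in WT, without overlap but with neighbouring values (0.51 ± 0.13, edgeR adjusted p = 0.0150). That call was lost with each cell thinned to 4000 UMIs (0.43, adjusted p = 0.103), without WT library 3 (0.40, 0.0632), and without Ly6a-positive (0.28, 0.181) or cycling (0.40, 0.108) cells. Kdm6a did not pass (-0.13 ± 0.10, adjusted p = 0.354). Of 18 genes tested on the COMPASS list, which also holds the demethylase Kdm6b, 3 were higher and 1 was lower. This compares with 14.1% higher and 13.4% lower of all genes tested. Besides Kmt2d, these were Setd1b, another H3K4 methyltransferase (0.48 ± 0.13, adjusted p = 0.0174), Kdm6b, a second H3K27 demethylase (0.41 ± 0.13, 0.0317), and the core subunit Dpy30, at 83.2, 77.2 and 61.7 CPM against 111, 99.9 and 110 without overlap (-0.52 ± 0.12, 0.00784). None of the 3 rises was called with each cell thinned (0 higher and 1 lower), and no member of the list was called without cycling cells. With all 9 libraries in the fit 1 was higher and 1 lower. Krt8 was at 339, 298 and 235 CPM in Kmt2c KO and at 569, 564 and 550 in WT, a fall by 0.94 on the log2 scale (SE 0.13, edgeR adjusted p = 0.000307), with every Kmt2c KO library below every WT library. H2BMc itself, which chose the cells, read 148 ± 5.59 and 88.6 ± 21.2 CPM (SD, n = 3 each), a value given as a description.

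Across all genes, edgeR's quasi-likelihood test on the sums per library called 3662 of 13297 genes (27.5%), 1876 higher (14.1%) and 1786 lower (13.4%) in Kmt2c KO. Outside the lists of interferon and MHC genes, 1701 of 13103 were higher and 1785 lower. Most of these differences were small. Of the called genes outside those lists with at least 10 CPM in the higher group and no overlap between libraries, 1195 higher and 1335 lower, 123 rose and 63 fell by at least 2-fold, 26 and 13 by at least 4-fold, and 11 and 7 by at least 8-fold. With each cell thinned to 4000 UMIs before summing, which sets the depth per cell equal, 1005 genes were called higher and 872 lower, and 946 and 803 of these were among the calls above. That fit also held fewer UMIs per library, with 11612 genes tested. Which calls were lost there through fewer counts was not tested. Without WT library 2, 1096 genes were called lower. Of 219 list members that were named by rule and called, 89 were called in the same direction in all 22 alternative fits. The fits in which most were not called were those without Ly6a-positive cells (99, of which 40 were not tested), with each cell thinned (72, of which 25 were not tested) and without cycling cells (54, of which 15 were not tested). The counts of list members given below are to be read against the 14.1% higher and 13.4% lower of all genes.

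Among the genes that rose most outside the interferon and MHC lists were complement proteins (C3, C4b), the acute-phase protein Saa3, the antimicrobial secretions Lcn2 and Slpi, the epithelial cytokine Tslp, the nitric oxide synthase Nos2, the prostaglandin synthase Ptgs2 and the haem-degrading enzyme Hmox1, and the matrix protease Mmp3, along with Pmepa1, Dusp2, Slurp1 and the uncharacterised AC133103.1. They were chosen as the largest called rises without overlap between the 3 Kmt2c KO and 3 WT libraries, so that their size and separation follow from the choice and are given as a description of the comparison.

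C3, the central protein of the complement cascade, was at 78.0, 152 and 179 CPM in Kmt2c KO and at 2.00, 2.50 and 1.43 CPM in WT. It rose by a log2 of 6.06 ± 0.34 (edgeR adjusted p = 2.12e-07). C4b, which acts upstream of C3 in the classical pathway and has a close copy in C4a that reads could also match, was at 26.3, 36.7 and 52.3 CPM against 1.4, 1.53 and 1.43 (4.70 ± 0.28, adjusted p = 3.31e-07). In both genes Kmt2c KO library 1 was the lowest knockout library and still more than 10 times above the WT values. Cfb, the protease that drives the alternative pathway, was at 5.49, 9.52 and 11.3 CPM against 0, 0.208 and 0.205. It was counted 818 times in Kmt2c KO and 5 times in WT, a ratio per UMI of 59.1 (exact counting interval 25.2 to 183). In all 3 genes every Kmt2c KO library lay above every WT library. Leukocyte cells of Kmt2c KO tumours held C3 and C4b at least as often as the tumour cells, as described further on. Among cells without a Ly6a UMI the differences were smaller, 4.39 for C3 and 2.63 for C4b on the log2 scale.

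Of 19 complement genes tested, 10 were higher and 1 was lower (median log2 0.90, against -0.00 over all genes tested). With each cell thinned these were 9 and 1 of 17, with a median of 0.53. C1rb (2.75 ± 0.37, adjusted p = 0.000226), a protease of the first complex with a close copy in C1ra, rose. The recognition subunit C1qb also passed (1.41 ± 0.35, adjusted p = 0.0108). It is a macrophage gene on the macrophage list described further on, and C1qb was not called with all 9 libraries in the fit, with each cell thinned, or without Ly6a-positive or cycling cells.

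Saa3, a serum amyloid A protein of the acute phase, had the largest standard error among the named rises. It was at 2.26, 14.7 and 22.4 CPM in Kmt2c KO and at 0.10, 0.278 and 0.205 CPM in WT, with Kmt2c KO library 1 well below the other knockout libraries. The log2 fold change was 5.94 ± 1.06 (edgeR adjusted p = 0.00174). With all 9 libraries in the fit the adjusted p was 0.0512, which ended the call, and with Kmt2d KO library 2 left out of that fit it was 0.0325. Lcn2, which binds bacterial iron carriers, was at 17.6, 34.0 and 41.5 CPM against 0.30, 2.15 and 0.205 (4.89 ± 0.48, adjusted p = 1.99e-05). Slpi, a secreted inhibitor of leukocyte proteases, was at 432, 891 and 1297 CPM against 30.02, 85.2 and 52.4 (3.94 ± 0.40, adjusted p = 3.00e-05). The 3 genes had the same order of knockout libraries, with library 1 lowest and library 3 highest. Among cells without a Ly6a UMI the log2 fold change was 4.75 for Lcn2 and 2.70 for Slpi.

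The list of acute-phase and antimicrobial genes, to which these 3 belong, had 13 of 18 tested members higher and 1 lower (median log2 1.48). With all 9 libraries in the fit 6 of 21 were higher and 1 lower, and with each cell thinned 6 of 11 and 1, with a median of 0.71. Hp, the haemoglobin-binding haptoglobin, passed (3.70 ± 1.08, adjusted p = 0.0243), although Kmt2c KO library 1 at 0.440 CPM lay below WT library 2 at 0.694, so that its groups overlapped. Lrg1, a glycoprotein induced in acute inflammation, was at 1.29 ± 0.619 against 0.160 ± 0.102 CPM (2.82 ± 0.63, adjusted p = 0.00639). Hp was not called in 11 of the 22 alternative fits (in 4 it was too low to test), DESeq2 among them, and Lrg1 in 9 (in 8 too low to test).

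Ptgs2, the inducible cyclooxygenase that makes the precursor of prostaglandins, was at 21.3, 45.9 and 76.5 CPM in Kmt2c KO and at 2.20, 6.25 and 11.6 in WT. It rose by 2.84 ± 0.47 (edgeR adjusted p = 0.00113), with a spread of several fold within both groups. Of 18 genes of prostaglandin metabolism, 6 were higher and 2 lower, against 14.1% and 13.4% of all genes tested. The group V phospholipase Pla2g5, which frees fatty acids from membranes, was steadier between libraries, at 32.7, 33.8 and 38.3 CPM against 8.41, 8.53 and 8.90 (2.02 ± 0.10, adjusted p = 1.15e-07). Ptgs1, the constitutive cyclooxygenase, was at 353 ± 8.15 against 241 ± 4.32 CPM (0.55 ± 0.09, 0.000703), but without Ly6a-positive cells Ptgs1 stood at -0.04 (adjusted p = 0.873). Ptgds, which turns the common precursor into prostaglandin D, was lower (-0.97 ± 0.24, adjusted p = 0.0104), a call that was lost without WT library 2 (0.0517).

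Nos2, which makes nitric oxide, was at 12.2, 29.3 and 32.4 CPM against 1.00, 3.33 and 1.53 (3.54 ± 0.42, adjusted p = 9.97e-05). Tslp, an epithelial cytokine that acts on dendritic cells and lymphocytes, was at 10.3, 12.9 and 20.6 CPM against 1.4, 1.25 and 0.614 (3.70 ± 0.32, 7.05e-06). Hmox1, which breaks down haem and is induced by oxidative stress, was at 46.3, 144 and 102 CPM against 10.0, 22.3 and 12.1 (2.68 ± 0.38, 0.000361). The metallothioneins, which bind zinc and copper, moved the same way: Mt1 was at 1936 ± 538 against 551 ± 70.8 CPM (1.81 ± 0.19, adjusted p = 3.18e-05) and Mt2 at 448 ± 115 against 146 ± 11.9 (1.62 ± 0.16, 1.97e-05). Over the whole list of metallothionein and oxidative stress genes 9 of 39 tested members were higher and 9 lower, against 14.1% and 13.4% of all genes tested, but 16 and 6 of 39 without cycling cells and 11 and 5 of 37 with each cell thinned.

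The remaining named rises had other roles. Pmepa1, a membrane protein that is a target and inhibitor of transforming growth factor β signalling, was at 20.3, 32.7 and 34.2 CPM against 1.60, 1.73 and 0.102 (4.57 ± 0.36, adjusted p = 3.21e-06). Dusp2, a phosphatase that switches off mitogen-activated kinases, was at 8.19, 15.1 and 14.4 CPM against 1.20, 1.11 and 1.23 (3.41 ± 0.29, 7.09e-06). Slurp1, a small secreted protein of the Ly6 family, was at 9.60, 16.5 and 24.7 CPM against 4.40, 1.25 and 0.818 (3.01 ± 0.44, 0.000477), and WT library 1 was the highest of its group. AC133103.1, for which the files give a symbol and identifier only, was at 8.13, 10.97 and 18.2 CPM against 0.700, 0.694 and 0.818 (4.06 ± 0.36, 9.12e-06).

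Mmp3, stromelysin-1, a protease that cleaves matrix proteins and activates other matrix metalloproteinases, was at 166, 324 and 257 CPM in Kmt2c KO and at 23.9, 38.2 and 30.7 CPM in WT. It rose by a log2 of 3.0 ± 0.24 (edgeR adjusted p = 3.58e-06), and by 1.68 among cells without a Ly6a UMI. Mmp13, a collagenase whose gene is the nearest one above 5 CPM on one side of Mmp3, was counted 695 times in Kmt2c KO and 2 times in WT, a ratio per UMI of 126 (exact counting interval 34.6 to 1039). Mmp10, which lies closer on the other side, was at 16.3, 13.5 and 23.6 CPM against 4.5, 7.70 and 5.21 (1.57 ± 0.22, adjusted p = 0.000299). Mmp2, a gelatinase located elsewhere, was at 12.6, 31.0 and 32.0 CPM against 10.3, 10.8 and 11.1 (1.22 ± 0.29, 0.00872), so that Kmt2c KO library 1 lay close to WT. Of 12 metalloproteinase and inhibitor genes tested, 5 were higher and 0 lower, against 14.1% and 13.4% of all genes tested, or 5 and 2 without cycling cells. The inhibitors did not pass, with Timp1 at 0.11 and Timp2 at -0.10 on the log2 scale. Of the plasminogen system, which activates metalloproteinases, 2 of 6 genes were higher and 0 lower (3 and 2 without cycling cells, 1 and 0 with all 9 libraries in the fit), among them the activator Plau (12.8 ± 3.22 against 4.57 ± 0.751 CPM; 1.47 ± 0.21, adjusted p = 0.000311).

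**Figure D1:**
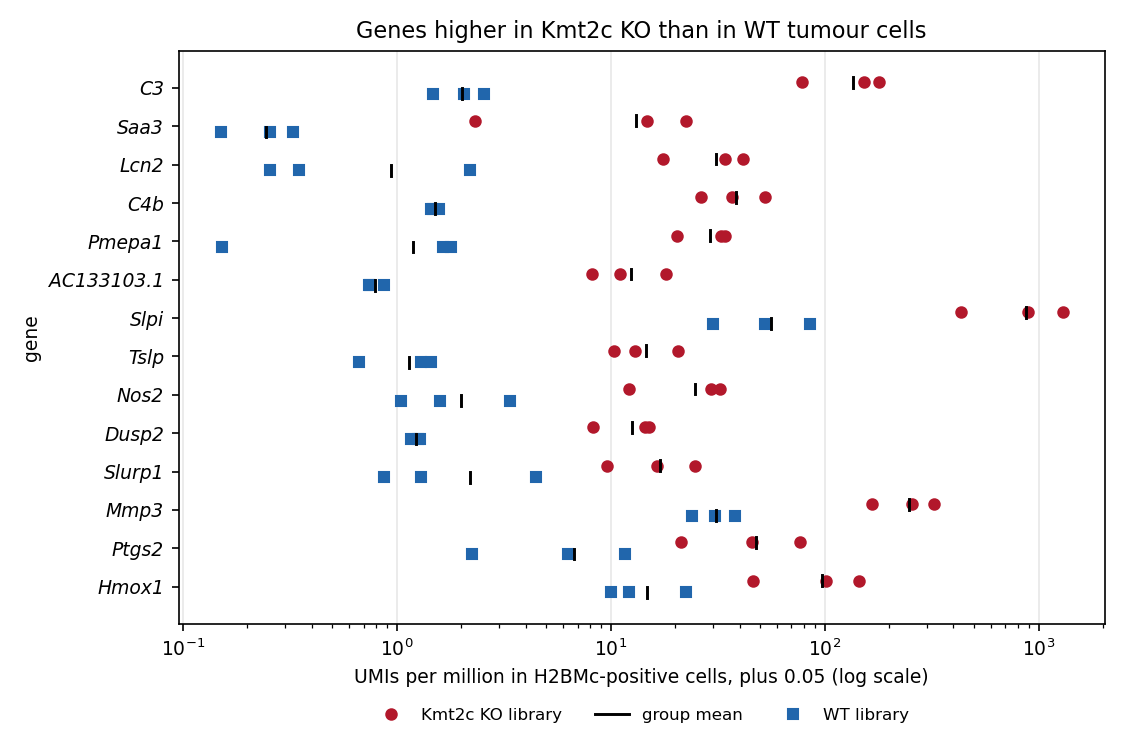
Level of the 14 named genes that were higher in Kmt2c KO, in CPM plus 0.05 on a log axis, with 1 red circle per Kmt2c KO library, 1 blue square per WT library and a black tick at each group's mean. The red and blue marks of a gene do not overlap, by the rule that chose the genes, and Kmt2c KO library 1 gives the lowest red mark for C3 (78.0), Saa3 (2.26), Lcn2 (17.6), Slpi (432) and Mmp3 (166).

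What was lost was of a different kind. The genes that fell most included a pair of presynaptic scaffold genes, a pair of fibrillar collagens and several uncharacterised transcripts, and several were near 0 in all 3 Kmt2c KO libraries. By a rule of at least 10 CPM in 1 group and under 1 CPM in the other, 6 genes were lost in Kmt2c KO (Rims1, 3830417A13Rik, Gm364, Mrgprx2, Ppfia2 and Gm32885) and 3 were gained (Saa3, Lcn2 and AC133103.1).

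Rims1, a scaffold of the presynaptic release site, was counted 4 times in the Kmt2c KO cells and 444 times in the WT cells, although the former held several times as many UMIs. Its level was 0.0587, 0 and 0.0665 CPM in Kmt2c KO and 16.7, 9.78 and 13.9 CPM in WT. The ratio per UMI of WT to Kmt2c KO was 307 (exact counting interval 119 to 1132), and the edgeR adjusted p was 9.27e-08. Ppfia2, a liprin that binds the same presynaptic scaffold, was at 0.558, 0.460 and 0.0665 CPM against 10.3, 9.58 and 11.1 (-4.78 ± 0.34, adjusted p = 1.53e-06). Both were also low in all 3 Kmt2d KO libraries, with Rims1 at 0.286, 0.0328 and 1.65 CPM and Ppfia2 at 0.695, 0.917 and 1.67.

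3830417A13Rik, an uncharacterised gene on the X chromosome, was counted 4 times in Kmt2c KO and 416 times in WT (0.0881, 0 and 0.0333 CPM against 7.51, 12.6 and 16.4), a ratio per UMI of 288 (112 to 1061). Gm364, also on the X chromosome, was at 0.176, 0.722 and 0.599 CPM against 48.2, 51.3 and 46.8 (-6.63 ± 0.22, edgeR adjusted p = 2.20e-08). Mrgprx2, a receptor of the Mas-related family known from mast cells and sensory neurons, was at 0.617, 0.296 and 0.499 CPM against 23.2, 19.9 and 19.0 (-5.43 ± 0.19, 2.21e-08). Gm32885, a predicted gene, was at 0.969, 0.591 and 0.898 CPM against 11.5, 9.37 and 10.5 (-3.65 ± 0.20, 1.92e-07). In these genes the spread within each group was small beside the gap. The Kmt2d KO libraries, compared with the same WT libraries, divided on 3 of them: Gm364 was at 44.6, 0.164 and 50.8 CPM, Mrgprx2 at 8.09, 1.08 and 10.8 and Gm32885 at 7.24, 0.622 and 9.41, with Kmt2d KO library 2 at the level of the Kmt2c KO libraries in each.

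Col3a1, the chain of type III collagen, was at 11.4, 11.7 and 8.78 CPM in Kmt2c KO and at 146, 132 and 99.1 CPM in WT. It fell by 3.56 on the log2 scale (SE 0.16, edgeR adjusted p = 8.50e-08). Col5a2, a chain of type V collagen that helps to start fibrils, was at 5.20, 7.06 and 5.75 CPM against 43.9, 41.7 and 31.3 (-2.70 ± 0.15, 2.12e-07). The 2 genes are adjacent on chromosome 1, with Col3a1 at 45311538–45349706 and Col5a2 at 45374331–45503282 (GRCm38.p6), and the nearest genes above 5 CPM on either side of the pair did not pass (Ercc5, which ends at 44181260, 0.11; Wdr75, which starts at 45795153, -0.05). Kmt2d KO libraries had Col3a1 at 64.1, 12.0 and 65.1 CPM and Col5a2 at 18.6, 6.49 and 18.5, again with library 2 at the Kmt2c KO level.

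Collagens as a family moved in both directions. Of 23 tested, 8 were higher and 8 lower (median log2 0.14), and with each cell thinned to 4000 UMIs 3 were higher and 4 lower of 19 with a median of -0.15. Col1a1, the major chain of type I collagen, did not pass (0.14). The enzymes and chaperones that make collagen were likewise divided, 9 higher and 4 lower of 24, or 4 and 3 with each cell thinned, against 14.1% and 13.4% of all genes tested. Serpinh1, the collagen chaperone of the endoplasmic reticulum, was at 65.3, 66.9 and 51.4 CPM against 213, 201 and 204 (-1.74 ± 0.12, adjusted p = 1.01e-06), and P4ha3, a prolyl hydroxylase, was at 10.2 ± 0.972 against 22.3 ± 1.64 (-1.13 ± 0.11, 1.36e-05). Its relative P4ha1, which is induced by low oxygen, was higher, at 117 ± 28.0 against 57.6 ± 3.81 CPM (1.03 ± 0.15, 0.000535), as was Crtap, a cofactor of prolyl 3-hydroxylation (31.4 ± 2.90 against 9.28 ± 2.17; 1.75 ± 0.16, 1.11e-05).

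Other matrix genes moved in both directions, with 14 higher and 11 lower of 55 glycoproteins and proteoglycans tested (median log2 -0.02), but 11 higher and 20 lower of 53 without cycling cells (median -0.23). Tnc, tenascin-C, an anti-adhesive protein of remodelled matrix, was at 23.2, 31.7 and 41.8 CPM against 6.30, 11.4 and 6.85 (1.93 ± 0.23, adjusted p = 9.54e-05). Mgp, matrix Gla protein, an inhibitor of calcification, was at 2.84 ± 1.26 against 0.317 ± 0.258 CPM (3.24 ± 0.54, 0.00110). Lower were Ccn3 (1.35 ± 0.107 against 7.76 ± 0.586; -2.52 ± 0.17, 1.11e-06), a matricellular regulator of growth, and Efemp1, a fibulin (0.268 ± 0.0818 against 1.96 ± 1.07; -2.92 ± 0.43, 0.000508), which was too low to test in 4 of the 22 alternative fits.

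Cavin2, a coat protein of caveolae, the small pits of the plasma membrane, was at 5.23, 5.45 and 3.93 CPM against 35.8, 21.7 and 27.8 (-2.53 ± 0.19, adjusted p = 1.90e-06). Among 8 caveola genes tested, Cav1 (-0.56 ± 0.09, 0.000997) and Cav2 (-0.30 ± 0.08, 0.0176), the structural caveolins, were lower too. The call of Cav2 was lost in 7 of the 22 alternative fits, that of Cav1 without Ly6a-positive cells (adjusted p = 0.0750). Cavin1 stood at 0.29 ± 0.09 (0.0379) and was not called in 12 of the 22, total counts without TMM scaling among them (0.0549). Dtna, dystrobrevin α, part of the dystrophin complex, was at 2.70, 2.07 and 2.06 CPM against 17.1, 18.2 and 17.8 (-2.95 ± 0.14, 1.15e-07). Prss23, a secreted serine protease, was at 2.64, 4.47 and 3.19 CPM against 23.4, 15.5 and 18.8 (-2.47 ± 0.20, 4.83e-06). Plet1, a surface protein of progenitor cells in several epithelia, was at 2.91, 2.04 and 2.03 CPM against 11.4, 9.37 and 11.3 (-2.19 ± 0.18, 5.09e-06). Gstm7, a glutathione transferase of a cluster of similar genes, was at 4.96, 3.81 and 2.53 CPM against 13.4, 16.0 and 17.8 (-2.05 ± 0.22, 4.06e-05). The remaining falls were Gm12415, a predicted gene, at 10.8 ± 0.799 against 42.9 ± 1.44 CPM (-1.99 ± 0.10, 1.15e-07), and Renbp, an enzyme of amino sugar metabolism, at 6.39 ± 1.52 against 24.2 ± 4.33 (-1.93 ± 0.18, 1.33e-05).

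**Figure D2:**
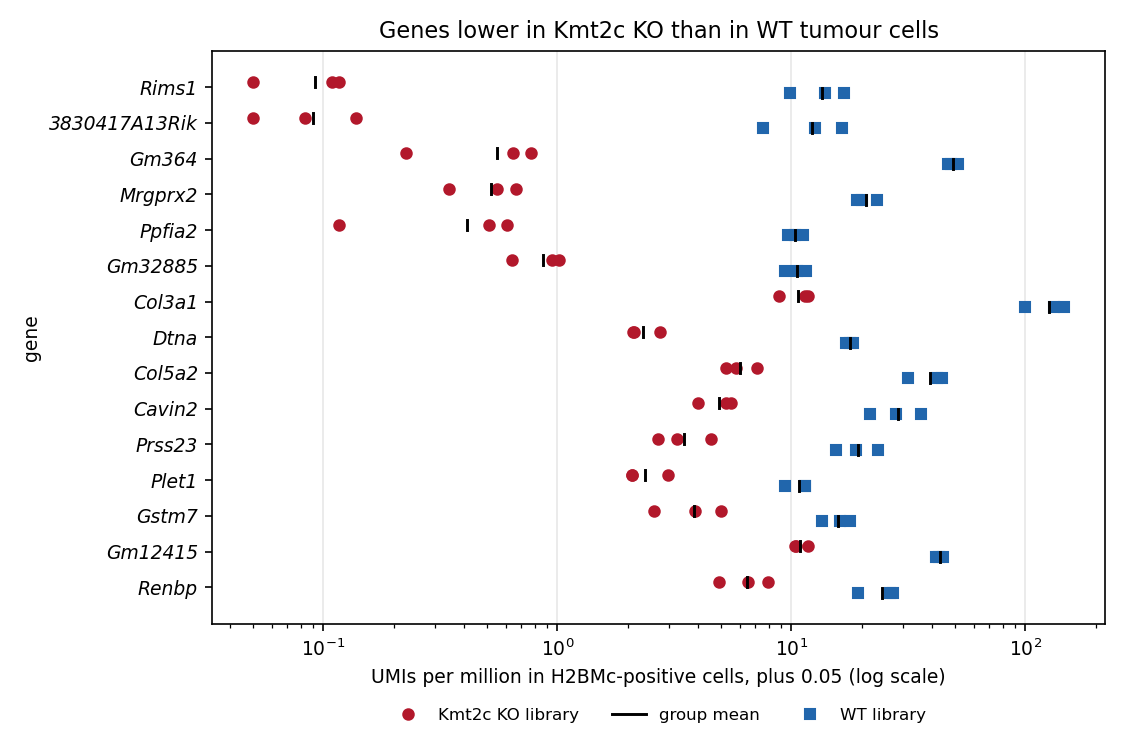
Level of the 15 named genes that were lower in Kmt2c KO, in CPM plus 0.05 on a log axis, with 1 red circle per Kmt2c KO library, 1 blue square per WT library and a black tick at each group's mean. The top 6 genes sit below 1 CPM in all 3 Kmt2c KO libraries, while Col3a1 keeps 8.78 to 11.7 against 99.1 to 146 in WT.

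Because WT cells were deeper, the share of cells holding a transcript was compared after thinning every cell to 4000 UMIs, which left 2158 to 3034 cells per Kmt2c KO library and 353 to 905 per WT library and dropped 683 shallower Kmt2c KO cells and 39 WT cells. At these levels such a share follows the level of a gene and does not count the cells that express it. C3 was expected in 24.8% ± 7.04 of Kmt2c KO and 0.814% ± 0.147 of WT cells (SD over 3 libraries), against 25.3% to 42.6% and 2.05% to 2.77% without thinning. Slpi was expected in 40.1% ± 6.66 and 10.4% ± 1.54, and Mmp3 in 38.5% ± 3.06 and 9.05% ± 2.13. Lcn2 was expected in 6.25% ± 1.58 against 0.309% ± 0.288 and Saa3 in 1.20% ± 0.625 against 0.0486% ± 0.0220. Of the falls, Col3a1 went from 32.2% ± 4.54 of WT to 2.64% ± 0.616 of Kmt2c KO cells, and Gm364 from 17.8% ± 0.671 to 0.135% ± 0.0493. For all 29 genes the libraries of the groups did not overlap (exact permutation p = 0.1 each, the smallest possible), which repeats the choice of these genes on the same libraries, and without thinning this held for 27 of the 29.

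The same shares were read in cells with a UMI of Ptprc or Tyrobp and none of H2BMc or Krt8, here called leukocyte cells, at 2000 UMIs per cell because these were shallower. This depth left 102, 229 and 173 of 187, 556 and 400 such cells in the Kmt2c KO libraries. In the WT libraries it left 51, 52 and 78 of 86, 101 and 121. Shares are means over libraries, and with so few cells the lowest leukocyte shares are imprecise. For Gm364 the leukocyte cells gave 0.0569% in Kmt2c KO and 0.510% in WT, beside 0.0687% and 9.28% of tumour cells, and for Col3a1 1.87% and 3.34%, beside 1.61% and 22.3%. For these 2 genes the tumour-cell shares in Kmt2c KO lay near the leukocyte-cell shares. Tumour cells in which H2BMc and Krt8 went undetected can enter the leukocyte class, and their part in it was not tested. Slpi was in 15.9% of leukocyte cells in Kmt2c KO and 0.952% in WT, beside 32.9% and 7.10% of tumour cells, and Mmp3 in 10.9% and 0.173%, beside 26.7% and 5.16%. For 5 of the rises the leukocyte cells in Kmt2c KO held the gene at least as often as the tumour cells: C3 (28.2% beside 18.0%), C4b (10.1% beside 8.61%), Saa3 (2.13% beside 0.865%), Pmepa1 (8.89% beside 5.79%) and Dusp2 (8.48% beside 2.57%). In WT the leukocyte shares were 7.56% for C3, 2.76% for C4b, 0% for Saa3, 8.36% for Pmepa1 and 4.43% for Dusp2, beside tumour-cell shares of 0.436%, 0.452%, 0.0248%, 0.325% and 0.200%. Leaving out all tumour cells that held a UMI of the leukocyte genes Ptprc and Tyrobp or the endothelial genes Pecam1 and Cdh5 gave log2 fold changes of 6.24 for C3, 4.63 for C4b, 5.99 for Saa3, 4.64 for Pmepa1 and 3.38 for Dusp2, beside 6.06, 4.70, 5.94, 4.57 and 3.41 with these cells.

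**Figure D3:**
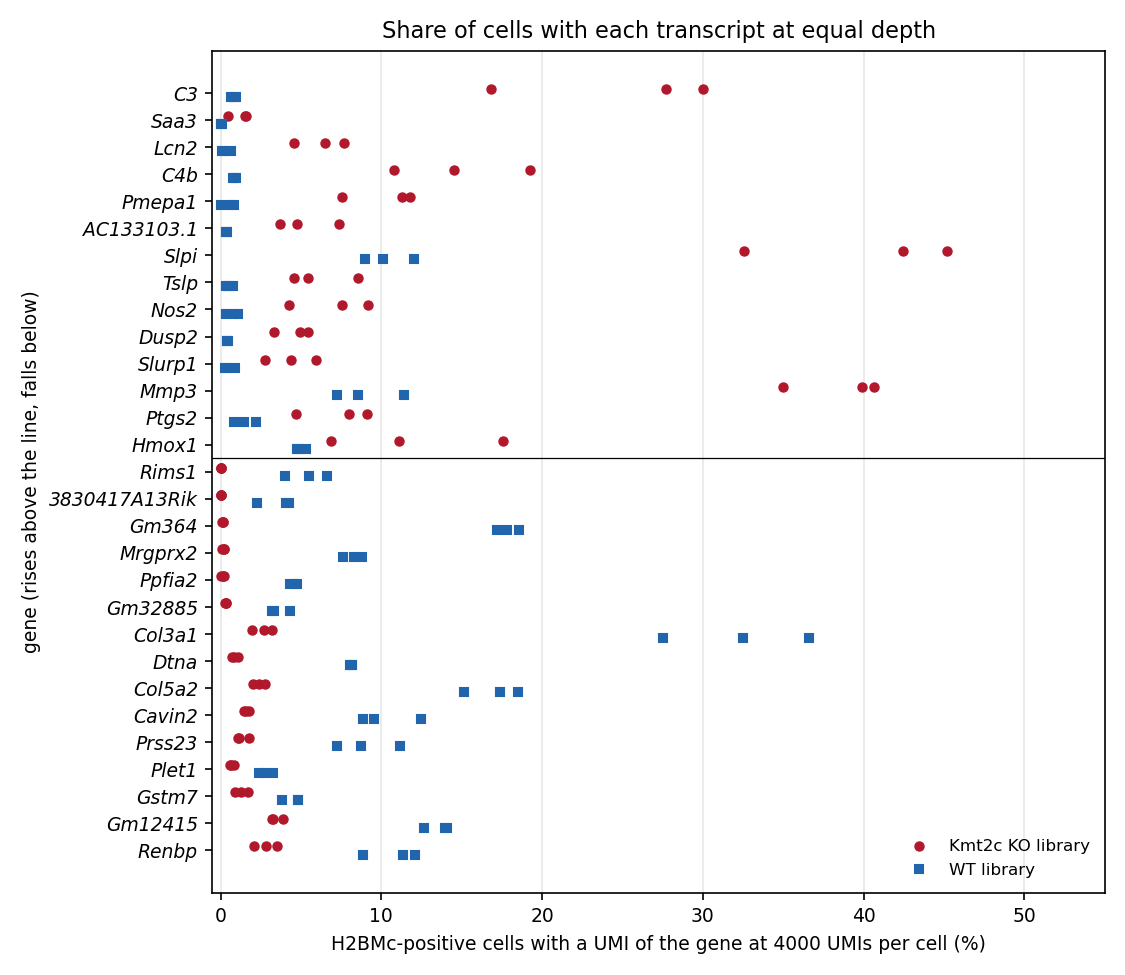
Percentage of H2BMc-positive cells expected to hold a UMI of each named gene after thinning every cell to 4000 UMIs, with 1 red circle per Kmt2c KO library and 1 blue square per WT library. Rises stand above the line and falls below it; C3, Slpi and Mmp3 reach means of 24.8%, 40.1% and 38.5% in Kmt2c KO, and Col3a1 and Gm364 means of 32.2% and 17.8% in WT.

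Transcripts of other cell types were looked for in the same sums. Of 14 macrophage markers tested, 7 were higher in Kmt2c KO and 0 lower (median log2 0.91), among them Aif1 (1.48 ± 0.34, adjusted p = 0.00769), Ctss (1.52 ± 0.44, 0.0231) and Tyrobp (1.07 ± 0.25, 0.00859), whereas Lyz2 (3.26 to 6.37 CPM against 4.90 to 5.69; -0.03) and Csf1r (0.08) did not pass. With each cell thinned Aif1 (log2 0.62), Ctss (1.07) and Tyrobp (0.98) were not called. Nor were they without Ly6a-positive cells (Aif1 0.89, Tyrobp 0.12), where Ctss was too low to test. The summed level of the 15 macrophage markers was 40.3 to 73.4 CPM in Kmt2c KO and 26.8 to 43.4 CPM in WT. Cells with a leukocyte or endothelial UMI made up 10.3% to 15.3% of Kmt2c KO and 8.26% to 10.2% of WT H2BMc-positive cells. Of 6 endothelial markers tested 3 were higher (Cdh5, Tek and Eng). With each cell thinned Tek (log2 0.82, from 0.84) and Eng (0.31, from 0.53) were not called. The endothelial markers had a summed level of 76.3 to 86.6 against 57.2 to 75.3 CPM. Most of that sum was Plvap, at 38.4 to 43.5 against 34.2 to 46.4 CPM (0.05, not called), and Eng. Pecam1 (-0.93) and Egfl7 (-0.58) did not pass, and Cldn5 (11 UMIs in Kmt2c KO and 38 in WT), Emcn (2 and 13) and Kdr (6 and 10) were too low to test. T and NK cell markers summed to at most 2.73 CPM and B cell markers to at most 0.910. The part of these cells in the rises was not tested beyond the fit without them, which called 1782 genes higher and 1681 lower. Of 10 fibroblast markers, 2 were higher and 3 lower, against 14.1% and 13.4% of all genes tested, with wide ranges in both groups (Dcn 23.3 to 43.0 CPM in Kmt2c KO and 16.3 to 63.9 in WT).

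For reference, the interferon list had 146 of 162 tested genes higher and 0 lower (median log2 1.85). Ly6a was at 807, 1277 and 1688 CPM against 38.8, 58.6 and 55.7 (4.61 ± 0.25, adjusted p = 1.99e-07). MHC class I genes were higher in 21 of 24 and lower in 1, and MHC class II genes in 8 of 8, with Cd74, the invariant chain, at 39.1, 61.4 and 79.0 CPM against 15.9, 3.05 and 5.73 (2.92 ± 0.40, 0.000262). Among cells without a Ly6a UMI Cd74 stood at 0.47 (adjusted p = 0.484), and the class II chains H2-Aa (0.79, 0.129), H2-Ab1 (0.93, 0.158) and H2-Eb1 (0.83, 0.188) were not called either. The class II activator Ciita was counted 154 times in Kmt2c KO and 1 time in WT, a ratio per UMI of 55.7 with a counting interval of 9.84 to 2213.

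Beyond these, several lists of inducible genes had more members higher than the 14.1% of all genes tested. Of 35 NF-kB feedback and target genes 19 were higher and 0 lower (median log2 0.43), or 14 and 0 with each cell thinned, including Tnfaip3, an inhibitor of the pathway (1.42 ± 0.34, adjusted p = 0.00912), and Birc3, an inhibitor of cell death (1.32 ± 0.24, 0.00173). Of 36 immediate early genes 19 were higher and 1 lower (median 0.48), or 17 and 1 of 33 with each cell thinned, with Junb (0.95 ± 0.21, 0.00552), Nr4a1 (1.46 ± 0.18, 0.000107) and Ier3 (1.49 ± 0.29, 0.00273) among those that passed. Cebpb, a transcription factor of acute-phase genes, was at 541, 890 and 778 CPM against 224, 285 and 254 (1.53 ± 0.17, 4.84e-05). Chemokines were higher in 6 of 13 and lower in 0, or in 3 and 0 of 9 with each cell thinned, with Ccl8 at 4.29, 15.2 and 16.1 CPM against 2.40, 2.43 and 2.35 (2.30 ± 0.46, 0.00341), a call that was lost with all 9 libraries in the fit (0.0576) and without Ly6a-positive cells (0.0889). Without Ly6a-positive cells Tnfaip3 (log2 1.28, adjusted p = 0.112) and Birc3 (0.16, 0.756) were not called either. The fold of Tnfaip3 changed little there, whereas that of Birc3 shrank.

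Genes of low oxygen and glycolysis were mostly higher, with 33 of 45 tested higher and 1 lower (median log2 0.76). Car9, a carbonic anhydrase induced by low oxygen, was at 36.1, 51.5 and 53.6 CPM against 12.6, 9.02 and 3.99 (2.45 ± 0.26, adjusted p = 3.53e-05). The glucose transporter Slc2a1 was at 149, 282 and 200 CPM against 55.4, 72.5 and 93.3 (1.52 ± 0.23, 0.000577). Ndrg1, a stress-induced gene, was at 174, 347 and 257 CPM against 79.5, 84.8 and 95.4 (1.59 ± 0.20, 0.000171), and Ero1l, an oxidase of the endoplasmic reticulum, at 145 ± 45.1 against 46.8 ± 11.5 (1.62 ± 0.23, 0.000326). In each of these the 3 Kmt2c KO libraries lay above the 3 WT libraries. Hif1a, the oxygen-regulated transcription factor, which acts mainly through protein stability, did not pass (0.00). The 1 gene that fell was Ldhb, the heart form of lactate dehydrogenase, counted 1 time in Kmt2c KO and 76 times in WT, a ratio per UMI of WT to Kmt2c KO of 210 with a counting interval of 36.6 to 8413. With each cell thinned, 23 of 42 were higher and 1 lower, and without cycling cells 31 of 43 and 1.

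Of 29 genes of the integrated stress response 15 were higher and 2 lower (10 and 1 of 27 with each cell thinned), with the pseudokinase Trib3 at 15.9 ± 2.84 against 4.21 ± 1.4 CPM (1.89 ± 0.21, adjusted p = 6.16e-05) and Ddit4, an inhibitor of mTOR, at 198 ± 67.9 against 94.7 ± 16.1 (1.07 ± 0.21, 0.00352), the latter not called without Ly6a-positive cells (0.0539). Growth factors and their receptors had 22 of 44 higher and 5 lower. Fgf10, a ligand for epithelial growth, was at 48.9, 56.9 and 93.6 CPM against 16.8, 21.9 and 14.5 (1.88 ± 0.21, 6.31e-05). Btc, an EGF receptor ligand, was at 15.2, 15.5 and 20.8 CPM against 7.61, 7.77 and 7.06 (1.19 ± 0.13, 6.39e-05), and Pdgfc was lower (-2.57 ± 0.29, 6.67e-05). The insulin-like growth factors went opposite ways, with Igf2 at 40.6, 68.4 and 65.8 CPM against 12.6, 9.51 and 14.4 (2.28 ± 0.20, 1.01e-05) and Igf1 at 0.235, 0.0985 and 0.166 CPM against 3.80, 3.33 and 0.716 (-3.94 ± 0.54, 0.000275).

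Among developmental signals, single receptors and secreted proteins differed. Tgfbr2, the type II receptor for transforming growth factor β, was at 26.7, 26.1 and 27.6 CPM against 69.2, 59.0 and 47.6 (-1.13 ± 0.11, adjusted p = 2.27e-05), while 9 of 32 genes of that pathway were higher and 3 lower (median log2 0.21), or 6 and 2 of 31 with each cell thinned (median -0.01). Wls, which carries Wnt proteins to the surface, was at 124, 124 and 138 CPM against 228, 238 and 214 (-0.82 ± 0.08, 3.00e-05), Notum, an enzyme that inactivates Wnt proteins, was at 20.2, 23.8 and 28.9 CPM against 8.51, 7.63 and 6.14 (1.70 ± 0.15, 7.26e-06; without Ly6a-positive cells not called, adjusted p = 0.413), and the Wnt list had 4 of 29 higher and 5 lower, near the shares of all genes tested (14.1% and 13.4%). Of 22 semaphorin and guidance genes 10 were higher and 1 lower (6 and 0 of 19 with each cell thinned), with Sema7a at 157 ± 16.1 against 69.8 ± 9.65 CPM (1.17 ± 0.11, 1.21e-05). Ptar1, a protein prenyltransferase subunit, was at 13.4, 12.3 and 14.5 CPM against 51.4, 46.4 and 44.3 (-1.82 ± 0.09, 1.15e-07), with no overlap and little spread within either group.

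Epithelial identity genes were scarce in this line, with 12 of 50 listed genes high enough to test, of which 0 were higher and 4 lower (median log2 -0.49). The median was 0.06 without cycling cells, with 1 of 8 higher and 3 lower, and 0.15 with no filter on low counts, with 0 of 42 higher and 6 lower. Besides Krt8 these were the tight-junction claudins Cldn1 (1.95 ± 0.285 against 6.0 ± 1.67 CPM; -1.61 ± 0.22, adjusted p = 0.000289) and Cldn6 (-1.51 ± 0.25, 0.000953; without Ly6a-positive cells -0.67, 0.134) and the junction scaffold Tjp1 (-0.42 ± 0.09, 0.00584). Mesenchymal genes were split, 8 higher and 7 lower of 28, or 4 and 8 of 27 without cycling cells. Fn1, fibronectin, was at 3155, 3946 and 4442 CPM against 2585, 2582 and 2102 (0.67 ± 0.13, 0.00240; not called without Ly6a-positive, 0.202, or cycling cells, 0.0774) and Nt5e, an ecto-enzyme that makes adenosine, at 8.81 ± 1.55 against 2.06 ± 0.378 (2.10 ± 0.20, 1.72e-05), whereas S100a4, a calcium-binding protein of motile cells, was at 2571, 2649 and 2517 CPM against 3948, 4051 and 4218 (-0.66 ± 0.09, 0.000355).

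Lists of replication, ribosomal and respiratory genes had more members lower than higher when all cells were counted. Of 53 DNA replication genes 0 were higher and 14 lower (median log2 -0.29), among them Hells, a chromatin remodeller (-0.51 ± 0.12, adjusted p = 0.00759). This depended on which cells were counted, and Hells was not called in the alternatives that follow. With each cell thinned 1 was higher and 1 lower (median -0.06), and among cells without cell-cycle transcripts 7 were higher and 1 lower (median 0.32). Cells with a cell-cycle UMI were 38.8% to 49.5% of Kmt2c KO and 49.9% to 60.1% of WT cells before thinning. Of 63 mitosis genes 2 were higher and 1 lower (median 0.00). Cytosolic ribosomal proteins had 1 of 76 higher and 29 lower (median -0.21), led by Rpl22l1 at 347, 316 and 314 CPM against 585, 724 and 622 (-0.98 ± 0.11, 4.70e-05), and nuclear genes of the respiratory chain 3 of 92 higher and 23 lower (median -0.18), with Ndufa4 at 181, 167 and 127 CPM against 362, 338 and 358 (-1.15 ± 0.13, 7.97e-05). Among cells without cell-cycle transcripts the lower counts were 6 for the ribosomal list (median -0.04) and 11 for the respiratory list (median -0.03). With each cell thinned they were 17 and 14. Of the 13 genes encoded in the mitochondrion 0 were higher and 4 lower, or 0 and 1 with all 9 libraries in the fit.

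**Figure D4:**
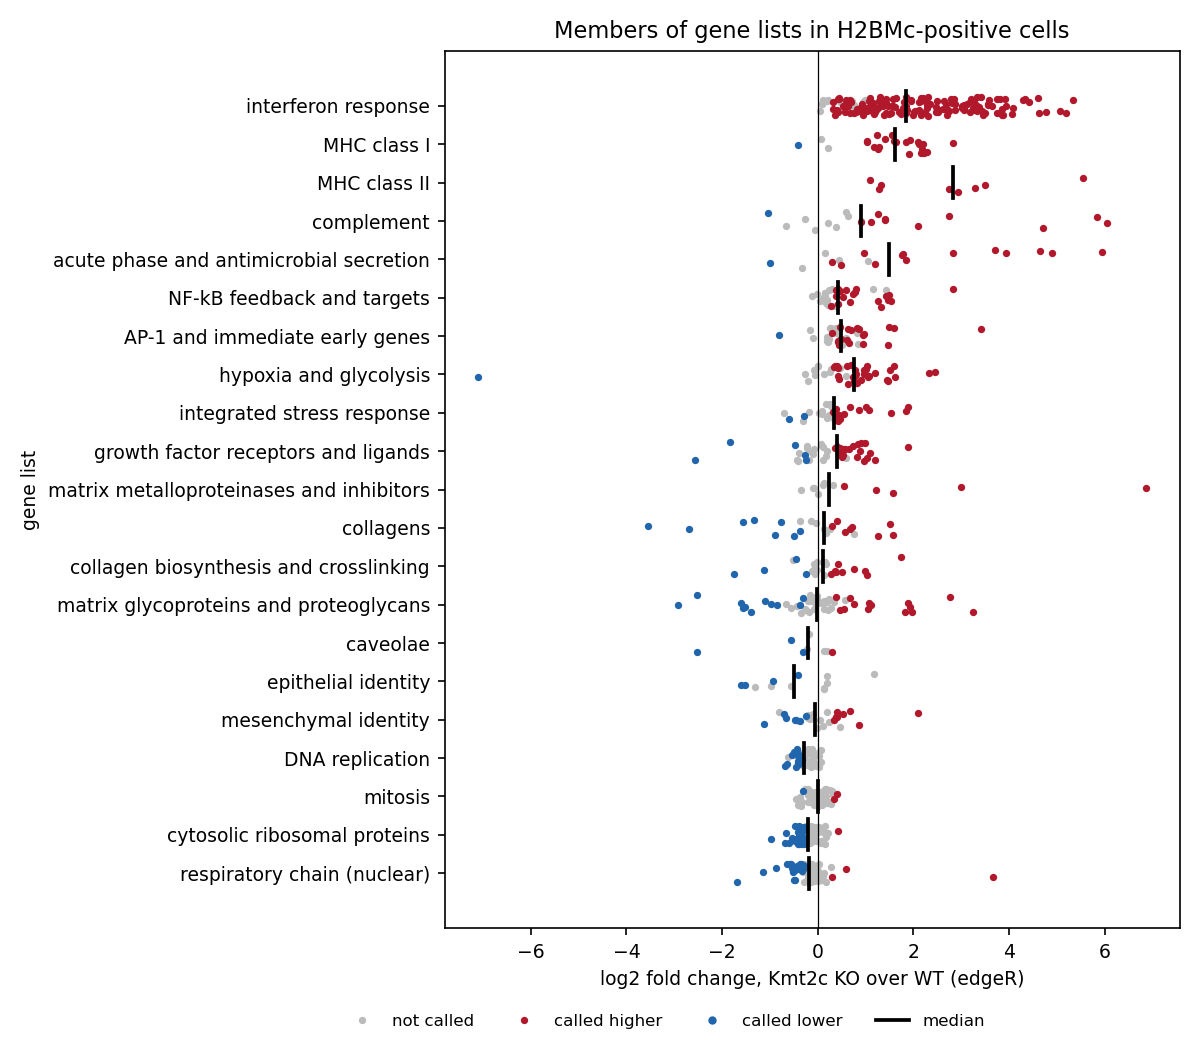
Log2 fold change of Kmt2c KO over WT for each tested member of 21 gene lists, with red points called higher, blue points called lower, grey points not called and a black bar at the list's median. Medians run from 2.83 for MHC class II to -0.49 for epithelial identity, which is 0.06 without cycling cells and 0.15 with no filter on low counts; hypoxia and glycolysis has a median of 0.76, and collagens spread on both sides of 0.

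The promoters of 4 of the secreted defence genes are printed because C/EBP factors are known regulators of acute-phase genes. Whether Cebpb had a part in their rise was not tested. Sequences are the 250 bases before a RefSeq transcript start (GRCm38.p6), read 5′ to 3′ on the gene's strand. Capitals mark matches to the C/EBP motif TTGCNNAA on either strand.
C3, chr17:57228137-57228386, minus strand: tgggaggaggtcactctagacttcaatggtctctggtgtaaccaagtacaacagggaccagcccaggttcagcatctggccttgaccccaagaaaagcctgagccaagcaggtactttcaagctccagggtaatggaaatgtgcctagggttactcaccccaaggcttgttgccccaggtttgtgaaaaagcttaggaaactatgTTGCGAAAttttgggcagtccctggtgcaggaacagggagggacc
Saa3, chr7:46715677-46715926, minus strand: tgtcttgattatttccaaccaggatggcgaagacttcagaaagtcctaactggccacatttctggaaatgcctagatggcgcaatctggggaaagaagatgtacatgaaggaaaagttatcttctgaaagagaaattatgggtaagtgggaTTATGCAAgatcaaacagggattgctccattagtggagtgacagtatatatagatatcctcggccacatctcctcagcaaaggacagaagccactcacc
Lcn2, chr2:32387740-32387989, minus strand: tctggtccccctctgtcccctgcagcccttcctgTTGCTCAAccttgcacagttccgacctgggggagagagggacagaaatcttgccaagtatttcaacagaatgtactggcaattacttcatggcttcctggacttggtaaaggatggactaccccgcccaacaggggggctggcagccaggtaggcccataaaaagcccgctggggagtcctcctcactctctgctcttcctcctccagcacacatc
Slpi, chr2:164356508-164356757, minus strand: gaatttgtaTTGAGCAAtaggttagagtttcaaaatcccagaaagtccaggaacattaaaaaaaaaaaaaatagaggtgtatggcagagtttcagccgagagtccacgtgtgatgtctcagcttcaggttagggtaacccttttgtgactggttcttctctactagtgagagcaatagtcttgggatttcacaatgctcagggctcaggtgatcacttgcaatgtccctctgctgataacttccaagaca
Each held 1 match, with 37 bases between it and the start in C3, 91 in Saa3, 208 in Lcn2 and 233 in Slpi. The motif was present in 9.56% of the 32851 RefSeq promoters of this length. Promoters were read for 7 of the named rises, and 6 genes had a match (the 4 above, Mmp3 and Ptgs2, but not Dusp2). Of the named falls 13 genes were read, with 20 promoters, and 2 genes had a match (Mrgprx2 and Plet1). Tslp and Dtna share a chromosome whose promoters were left out, so both are missing from these counts whatever their sequence. Some other named genes had no promoter read either, and the counts do not cover all named rises and falls. The NF-kB consensus was in 3.90% of all promoters and in 0 of the rises or falls that were read. These are matches of letters in windows chosen after the genes were known, and no binding was measured.

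Genes that lie next to each other were compared, taking on each side the nearest gene above 5 CPM (GRCm38.p6). Of 26 neighbours of 13 named rises, 10 were higher and 1 lower, and of 30 neighbours of 15 named falls, 6 were higher and 8 lower. Of all 9934 genes above 5 CPM from which neighbours were taken, 15.3% were higher and 15.05% lower, interferon genes included in both counts. Beside the metalloproteinases and the collagens, Sdc4, a proteoglycan receptor next to Slpi, was at 258 against 119 CPM (1.12 ± 0.12, adjusted p = 5.46e-05), Pla2g4a, a phospholipase next to Ptgs2, rose (0.76 ± 0.13, 0.00160), and Zbp1, an interferon-induced sensor next to Pmepa1, rose (3.56 ± 0.16, 8.50e-08). Gstm5, next to Gstm7, was lower (-1.50 ± 0.18, 0.000117), though reads of these similar genes can be hard to assign. Amigo2, next to Gm32885, was at 41.2 against 77.1 CPM (-0.90 ± 0.14, 0.000789), and Nol4, next to Dtna, was lower (-1.37 ± 0.13, 1.71e-05). Of the neighbours of Rims1, Tram2 did not pass (0.27) and Ogfrl1 was higher (0.49).

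Over whole chromosomes the differences were small and uneven. Among 9577 genes above 5 CPM outside the interferon and MHC lists, the 309 on chromosome 16 had a median log2 fold change of 0.23, with 123 higher and 10 lower, against -0.03 for the other chromosomes. Their share of UMIs was 2.38% to 2.47% in Kmt2c KO and 2.03% to 2.08% in WT. Chromosome 18 (256 genes, 15 higher and 88 lower) and chromosome 3 (467 genes, 19 higher and 165 lower) had medians of -0.21 and -0.20, chromosome 7 (703 genes, 59 higher and 180 lower) -0.13, chromosomes 6 (40 higher and 111 lower) and 14 (25 and 63) -0.11 each, and chromosome 17 (32 and 98) -0.10. Chromosomes 8, 4, X and 2 had medians of 0.10, 0.09, 0.09 and 0.08. On chromosome 16 the medians of the Kmt2c KO libraries, each set against the WT mean, were 0.24, 0.26 and 0.27. Kmt2d KO library 2 stood at 0.27 there, and the other Kmt2d KO libraries at 0.05 and 0.07. These medians are a description of the libraries, since genes on a chromosome are not independent, and copy number was not measured.

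**Figure D5:**
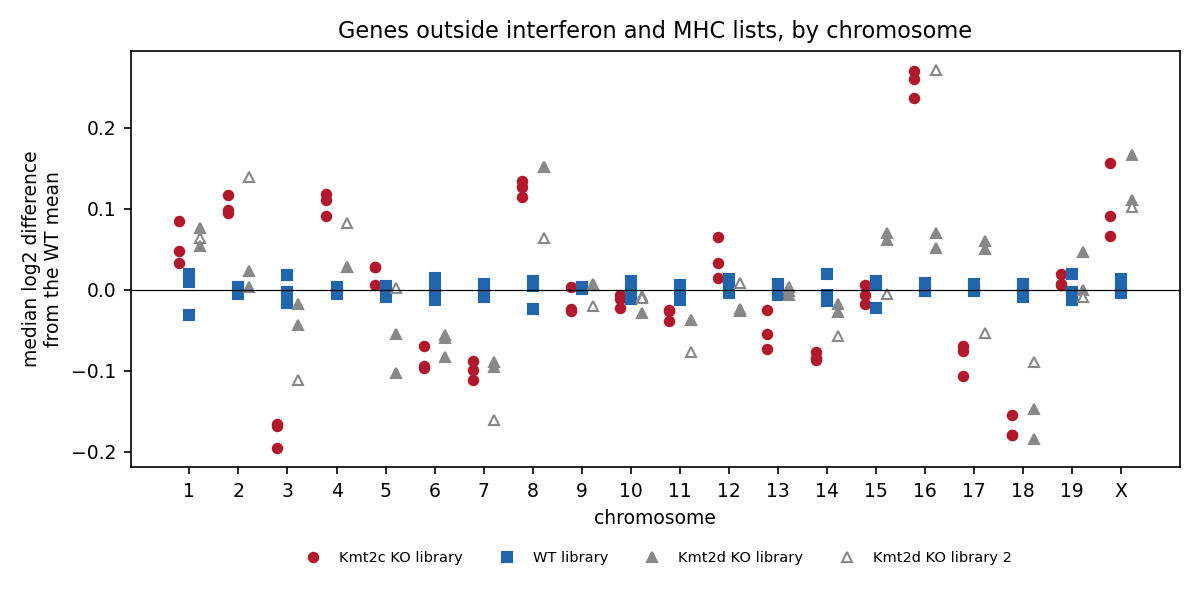
Median log2 difference from the WT mean over genes above 5 CPM outside the interferon and MHC lists, by chromosome, with 1 red circle per Kmt2c KO library, blue squares for WT libraries, filled grey triangles for Kmt2d KO libraries and an open triangle for Kmt2d KO library 2. WT squares lie near 0 because the WT mean is the reference; the Kmt2c KO libraries lie at 0.24 to 0.27 on chromosome 16, where Kmt2d KO library 2 (0.27) lies with them and the other Kmt2d KO libraries lie at 0.05 and 0.07.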

How the data were processed

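Unsorted suspensions of 9 tumours (3 each of Kmt2c KO, Kmt2d KO and WT), depleted of dead cells and debris on Percoll, were sequenced as 5′ single-cell libraries. The authors ran Cell Ranger 7.0.1 on mm10, per the submitters' processing notes, and deposited 1 matrix of UMI counts per gene and barcode. A depth equalisation during aggregation, which would lower all counts of a library alike, was not given in the sources used here. Libraries were taken from barcode suffixes and groups from the letters C, D and X of the aggregation table, read through the names of the study's comparisons. No source used here ties these libraries to replicate numbers, and the numbers only name them. p-values set the difference between the groups against the spread between tumours within them. Pairs of libraries of a group differed by 3.96 to 35.2 times the chi-square expected from sampling alone.

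Counts were summed per library over H2BMc-positive cells, because cells are not replicates, and tested with edgeR 4.0.16 (R 4.3.3; filterByExpr, TMM, glmQLFit, glmQLFTest) on the 6 Kmt2c KO and WT libraries, with Benjamini-Hochberg adjusted p below 0.05 as a call. Adjusted p-values of genes come from edgeR except where stated, and SEs are the log2 fold changes divided by the square root of F. The code was tested on simulated data. Single values were compared by two-sided exact permutation over libraries (20 assignments). Doublets were not called: no caller was run, cells above 7500 genes were dropped (15 H2BMc-positive cells in WT and 0 in Kmt2c KO), and cells with leukocyte or endothelial UMIs were left out as an alternative. Counting intervals are exact at 95% and cover counting error only. Ratios per UMI replace the fitted fold for some genes with few counts in a group. Others, such as Saa3 and Lrg1, were also low in WT and keep the fitted fold.

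Named genes were Kmt2c, Kmt2d, Kdm6a, H2BMc and Krt8; outside interferon and MHC lists, the 15 largest called rises and falls with at least 10 CPM in the higher group and no overlap between libraries; genes with at least 10 CPM in 1 group and under 1 in the other; and up to 6 leading called members of each list, with others to show what did not pass. Of the rises, 1 gene is not reported here, nor are some list members and neighbours. Members and lists were chosen with earlier results of these data known. Neighbours and promoters came from RefSeq tables (GRCm38.p6). Alternatives were DESeq2 1.42.0, other scaling, filters, cell selections, depths and libraries.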

Additional observations from a re-analysis of the deposited data

How the results depend on the processing

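No paired analysis was possible because the libraries in the matrix carry no replicate numbers that could be matched to the labels. Against 1876 genes called higher and 1786 lower, thinning each cell to 4000 UMIs (an alternative chosen after seeing the data, like the fits that require Krt8 or use 8 libraries) gave 1005 and 872 of 11612 tested, and leaving out 1 library at a time gave 1269 to 2009 higher and 1096 to 1630 lower, the lowest of both without WT library 2. The other fits stayed within 1.5 times: DESeq2 called 1668 and 1605, all 9 libraries together 1348 and 1292, 8 libraries without Kmt2d KO library 2 2054 and 2086, cells with Krt8 as well 1773 and 1541, and cells without cell-cycle UMIs 1344 and 1247. Cells without a Ly6a UMI gave 1621 and 1508, of which 941 and 915 were among the main calls and 15 were called in the opposite direction. No other of the 22 alternative fits called a gene in the opposite direction. Counting each gene of the lists once and leaving out markers, interferon and MHC genes, 283 members were called higher and 168 lower, and 193 and 104 with each cell thinned. Of 747 values of 34 named genes under the 22 fits, 741 kept their direction and their side of the threshold, 5 lost a call (Saa3 and Kmt2d) and 1 gained it (Kmt2c). Of these genes, 29 were chosen as the largest called changes on the same libraries. That their calls were kept follows in large part from the choice. Saa3 was not tested without Ly6a-positive cells. With an upper mitochondrial limit of 25% the difference in the share of H2BMc-positive cells was -3.58 percentage points against -6.36 and the groups overlapped, with kept cells thinned to 2000 UMIs (chosen after seeing the data) it turned to 2.54, and leaving out 1 library at a time it was -8.97 to -4.88. The 29 shares did not overlap under 2 H2BMc UMIs or 2000 UMIs per cell. WT depth, 361 to 925 cells per library, limits genes that are low in WT.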
